A study of Mus musculus with 33 samples.

Results

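The comparison described here set 2 libraries of CD8 resident memory T cells (TRM) from mouse skin, headed with code 6, against 2 libraries headed with code 5. They were taken from the count table by their column headers, and they are 4 of the 17 libraries of the first experiment and 4 of the 33 libraries of the series. All 17 libraries came from DNFB-allergic Nur77GFP mice, in which a green fluorescent reporter lights up after the T cell receptor (TCR) has been engaged. DNFB is the hapten dinitrofluorobenzene, which in sensitized mice provokes allergic contact dermatitis driven by CD8 T cells, and the series asked how TA, a glucocorticosteroid put on the skin at 0.01%, acts on the TRM. Both sets were live CD45+CD8+CD69+CD103+ cells without the reporter signal (Nur77GFP-), sorted by flow cytometry. Codes 2, 5 and 6 belong, in an order that the labels do not give, to day 0 with TA, day 6 (144 hours after the DNFB retest) with acetone, and day 6 with TA. No treatment or day is therefore attached to either code, and every direction below is that of code 6 relative to code 5. Each code has a sample A and a sample B, and the labels do not tie them to different animals, so each p-value reflects only how far these 4 libraries and the rest of the fit vary, which may be technical.

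CD8 TRM persist in a tissue after an immune response and do not return to the blood. In skin they lodge in the epidermis among keratinocytes, held there by CD103, which binds E-cadherin on epithelial cells, and by CD69, which opposes the receptor that leads cells out of tissue. When they meet their antigen again they release cytokines such as interferon gamma and tumour necrosis factor and kill target cells with granzymes. Signalling through the TCR quickly switches on immediate early genes, among them the AP-1 factors of the Fos and Jun families and the nuclear receptor Nr4a1 (Nur77).

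Depth was lowest in code 5 B, with 7383264 and 4439443 counts in code 5 and 7708896 and 7369762 in code 6. They detected 12287 to 13176 genes. The correlation of log2 CPM (counts scaled to library size) was 0.936 between the code 5 libraries and 0.946 between the code 6 libraries, against 0.896 to 0.920 across the codes. CD8 T cell identity genes (Cd3 chains, Cd8a, Lck and others) took 1.57% and 1.54% of the counts in code 5 and 1.32% and 1.33% in code 6. On the CPM scale used below their sums overlapped, at 14200 and 13310 CPM in code 5 and 13870 and 12760 CPM in code 6. Their median log2 fold change was -0.09. Cd8a itself measured 490.8 and 529.2 CPM in code 5 and 493.6 and 474.8 CPM in code 6, with overlapping libraries and a log2 difference of -0.07 ± 0.13 (SE; adjusted p = 0.925). Of 11 markers listed for gamma delta T cells 1 was in the table, at 0 counts in all 4 libraries. Mitochondrially encoded genes took 24.5% and 24.4% in code 5 and 25.4% and 22.2% in code 6.

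Of 11588 genes tested, 230 differed between code 6 and code 5 (1.98%), 172 of them higher (1.48%) and 58 lower (0.501%) in code 6. A gene was called when its adjusted p in edgeR's quasi-likelihood test was under 0.05, and none of the 230 had overlapping libraries. Without regard to the test, the libraries did not overlap for 2911 genes higher and 2626 genes lower in code 6 of the 11588. Of the called genes 112 were more than 2-fold higher and 31 more than 2-fold lower. Over all genes tested the median log2 fold change was -0.01, which the scaling of the libraries sets near 0. Of the higher genes 22 were on a list of keratinocyte genes, 32 encoded ribosomal proteins and 118 were in neither group. The lower genes included activation genes of T cells. The number of calls rested on having both libraries of each code: it was 90 without code 5 A, 64 without code 5 B, 86 without code 6 A and 112 without code 6 B. Of the 172 higher genes 67 were called in none of these fits and 40 in all 4, and of the 58 lower genes 36 were called in none and 4 in all: the AP-1 genes Fosb and Fosl2, the signalling inhibitor Tnfaip3 and the amino acid transporter Slc38a2.

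**Figure D1:**
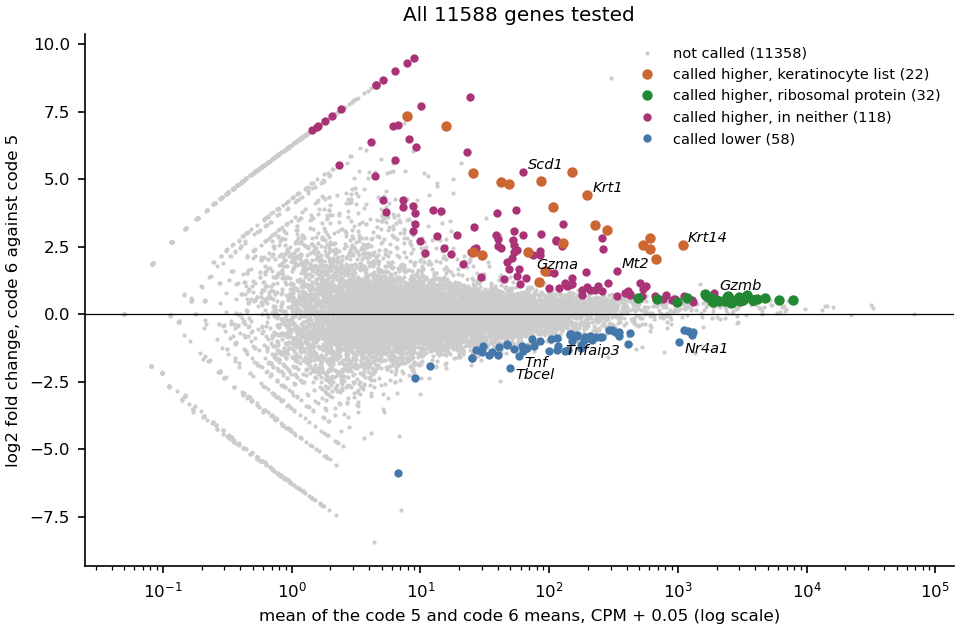
Log2 fold change of code 6 against code 5 for all 11588 genes tested, against the mean of the code means in CPM (log scale). The 22 called keratinocyte genes spread up to log2 7.34, the 32 called ribosomal protein genes sit at high level and small change, and the 58 called lower genes lie below 0.

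The clearest difference was in epidermal transcripts. Of 32 keratinocyte genes listed, 29 were tested, 22 rose in code 6 and 0 fell, with a list median of log2 2.65. Summed over the list, the libraries gave 0.180% and 0.187% of their counts to these genes in code 5 and 0.885% and 0.938% in code 6. The day 0 acetone libraries lay in between, at 0.491% to 0.530%, and the code 2 libraries at 0.235% and 0.246%. Code 6 thus had the highest level of these 9 libraries and code 5 the lowest.

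Among keratins of the basal epidermal layer, Krt14 measured 315.8 and 309.3 CPM in code 5 and 1850 and 1875 CPM in code 6, a rise of 5.96-fold (log2 2.57 ± 0.23, adjusted p = 1.52e-06). Krt14 lies on the minus strand of chromosome 11 (chr11:100203162-100207548, GRCm38). Krt1, a keratin made as keratinocytes leave the basal layer and begin to differentiate, rose from 14.8 and 20.1 CPM to 444.7 and 304.8 CPM, which is 21.5-fold (log2 4.43 ± 0.35, adjusted p = 3.4e-07). Krt1 lies on chromosome 15 (chr15:101845426-101850794). Both keratins were separated between the codes by far more than the distance between libraries of 1 code.

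Keratins that the epidermis makes after injury or during inflammation rose by larger factors. Krt6a measured 2.94 and 12.9 CPM in code 5 and 285.7 and 300.9 CPM in code 6 (log2 5.27 ± 0.54, adjusted p = 1.8e-05). Its partner Krt16 measured 3.18 and 3.32 CPM against 101.2 and 85.9 CPM (log2 4.84 ± 0.69, adjusted p = 0.00123). Krt17 had 3 counts over both code 5 libraries and 467 over both code 6 libraries, a ratio of 137.9 with a 95% exact counting interval of 46.9 to 671.2. In the day 0 acetone libraries Krt6a was at 1.76 to 2.99 CPM, below code 5 B, and Krt16 at 2.49 to 4.76 CPM, around its code 5 level, and in the code 2 libraries Krt6a was at 5.90 and 17.8 CPM. Krt17 stood at 9.26 to 13.2 CPM in day 0 acetone, between code 5 and code 6. The basal keratin Krt14, in contrast, was at 763.2 to 1290 CPM in day 0 acetone, above code 5 there too.

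The genes of the cornified envelope, the cross-linked protein shell of the outermost epidermis, moved with them. Sprr1a, a small proline-rich envelope protein, measured 3.06 and 2.34 CPM in code 5 and 99.3 and 64.1 CPM in code 6 (log2 4.88 ± 0.46, adjusted p = 2.83e-06). Sprr1b measured 4.77 and 6.05 CPM against 175.1 and 157.1 CPM (log2 4.94 ± 0.92, adjusted p = 0.00893). Lor, which encodes loricrin, the main protein of the envelope, measured 0.367 and 2.34 CPM against 53.8 and 45.2 CPM (log2 5.24 ± 1.29, adjusted p = 0.041). Sprr2d had 1 count in code 5 and 302 in code 6, a ratio of 267.6 with a counting interval of 47.7 to 10600. Cst6, an inhibitor of the proteases that process the envelope, measured 0.735 and 0.586 CPM against 53.5 and 36.3 CPM (log2 6.02 ± 0.95, adjusted p = 0.0012). These genes reached at most 6.05 CPM in code 5 and at least 15.9 CPM in code 6. Sprr1b, Lor and Sprr2d were called in 0 of the 4 fits that left out a library, and Krt16 in 2, whereas Sprr1a, Cst6, Krt1, Krt6a, Krt14 and Krt17 were called in all 4.

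**Figure D2:**
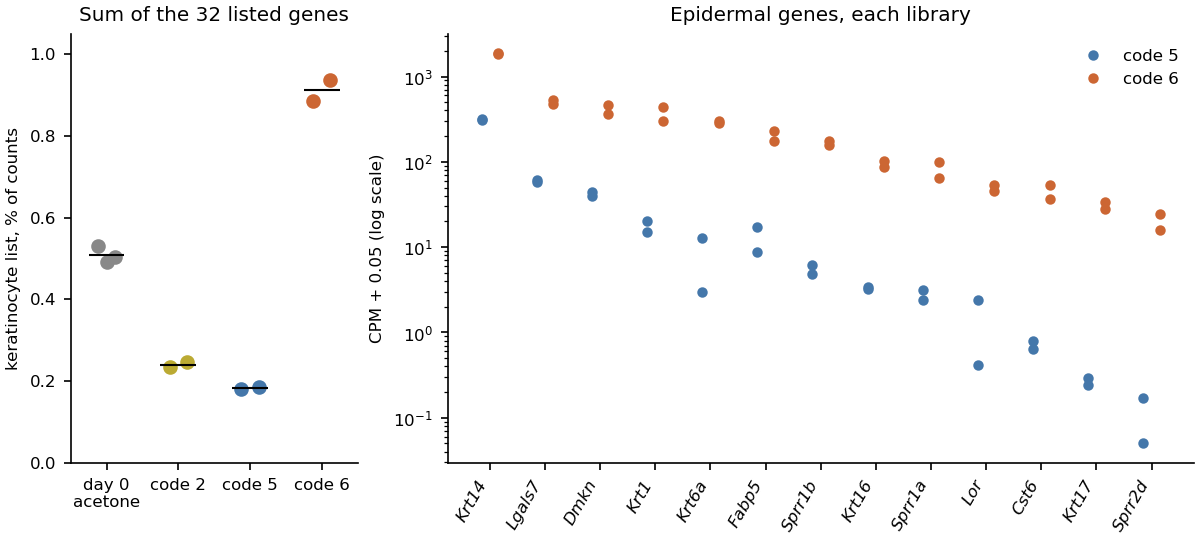
Left, the share of counts in the 32 keratinocyte genes for each library (points) and the mean (line); right, CPM + 0.05 (log scale) of 13 epidermal genes in each code 5 and code 6 library. Code 6 stands at 0.885% and 0.938% on the left, and in every gene on the right both code 6 points lie above both code 5 points.

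Secreted and cytoplasmic products of the epidermis followed the same direction. Dmkn, which encodes the secreted protein dermokine, measured 43.8 and 39.5 CPM in code 5 and 463.5 and 362.6 CPM in code 6, the smallest adjusted p of the named genes (log2 3.31 ± 0.22, adjusted p = 2.77e-08). Lgals7, the galectin of stratified epithelia, rose from 57.9 and 60.7 CPM to 535.8 and 482.1 CPM (log2 3.10 ± 0.26). The fatty acid binding protein Fabp5, listed both with keratinocytes and with tissue residency because skin TRM also use it, rose from 8.81 and 17.0 CPM to 232.0 and 173.2 CPM (log2 3.99 ± 0.76, adjusted p = 0.012). It was called in 0 of the 4 fits that left out a library. Of the 7 tested keratinocyte genes that did not pass, a pair was picked after the values were seen: Cdh1, which encodes E-cadherin, had a log2 fold change of -0.34 and the basal transcription factor Trp63 one of 0.62. Cdh1 was also listed with tissue residency.

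The upstream regions of these genes are shown because many that moved together carry TGANTCA, a loose form of the AP-1 recognition element. The pattern allows any base at its centre and reads the same on both strands, so it counts TGAATCA, as in Sprr1b below, beside TGAGTCA. In the RefSeq promoter table (GRCm38.p6, 250 bases before to 50 after each annotated start) the motif was present for 29 of 127 genes called higher that had an entry (22.8%), against 588 of 9264 of all genes tested (6.35%) and 2565 of 32851 of all promoters in the table (7.81%). Among called keratinocyte genes it was present in 5 of 14 and among called lower genes in 5 of 45 (11.1%). The letters TGACGTCA and CCAAT, searched on both strands of the same windows, were present for 4.72% and 34.6% of the higher genes and 3.68% and 42.8% of all genes tested. These searches were added after the values were seen. Stretches of 61 bases around the match nearest the start, on the gene's strand with each match in capitals, read as follows for the envelope gene Lor (chr3:92083157-92083217, minus strand), Sprr1b (chr3:92438857-92438917, minus strand), Dmkn (chr7:30763640-30763700, plus strand) and Gzmb (chr14:56262359-56262419, minus strand), a T cell gene described below.
Lor: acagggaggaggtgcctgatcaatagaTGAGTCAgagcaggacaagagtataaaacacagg
Sprr1b: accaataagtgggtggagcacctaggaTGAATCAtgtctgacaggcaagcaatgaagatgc
Dmkn: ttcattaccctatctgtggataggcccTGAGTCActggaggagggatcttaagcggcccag
Gzmb: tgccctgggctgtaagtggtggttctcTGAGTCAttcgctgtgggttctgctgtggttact
The matches begin 48, 111, 89 and 58 bases before the annotated start of Lor, Sprr1b, Dmkn and Gzmb. A match describes the letters and says nothing of what bound there in these cells.

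Markers of other cells were measured beside the keratinocyte genes. Of 9 neutrophil genes tested 2 rose, and both are also made by inflamed keratinocytes: S100a8 had 2 counts in code 5 and 240 in code 6 (ratio 106.3, counting interval 29.1 to 882.9), and S100a9 had 0 and 133 counts, at least 39.3-fold higher against a floor of 3 counts over the 2 libraries. Of the 9 tested 7 lay above 0, with a median of log2 4.11, or 0.83 with genes at 0 counts set to their bound. Both code 6 libraries were above both code 5 libraries for 4 of the 9 and below for 0. Over all 11588 genes tested this held for 2911 and 2626. Of the listed neutrophil genes too low to be tested, some were picked after their values were seen. Csf3r had 2 counts in code 5 and 1 in code 6, and Camp and Ltf had 0 in all 4 libraries. The neutrophil list summed to 13.8 and 45.7 CPM in code 5 and 56.5 and 40.6 CPM in code 6. Of 17 mononuclear phagocyte genes tested 1 rose, the lipopolysaccharide co-receptor Cd14, with 1 count in code 5 and 181 in code 6 (ratio 160.4, counting interval 28.4 to 6368). In the fit across libraries its log2 fold change was 6.96 ± 1.57 (adjusted p = 0.0285). With the trend by transcript length removed its adjusted p was 0.0462, close to the limit for a call. That list summed to 276.4 and 231.0 CPM in code 5 and 276.8 and 324.4 CPM in code 6.

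Of 12 fibroblast genes tested 1 rose, the actin-severing gene Gsn, at 141.9 and 176.5 CPM in code 5 against 310.3 and 274.3 CPM in code 6 (log2 0.88 ± 0.22, adjusted p = 0.041). Gsn was called in 0 of the 4 fits that left out a library and not with the trend by transcript length removed (log2 0.89, adjusted p = 0.0588). Of the 12 genes 10 lay above 0, with a median of log2 0.91. The list holds the T cell gene Thy1 and summed to 4964 and 4439 CPM in code 5 and 5044 and 4763 CPM in code 6. Of the endothelial, mast cell, CD4 and regulatory T cell, muscle and erythroid lists 0 tested genes were called, and no B cell gene was abundant enough to be tested. The endothelial list summed to 0 and 0.781 CPM in code 5 and 9.80 and 4.18 CPM in code 6, and both tested members lay above 0, Pecam1 with 3 and 103 counts and Lyve1 with 0 and 1. Of its 8 measured genes, 5 were at 0 in all 4 libraries, among them Cdh5 and Kdr, which were picked after their values were seen. One erythroid gene was singled out after its values were seen: the beta globin gene listed as Beta-s stood at 1.84 and 0.781 CPM in code 5 and at 607.6 and 604.1 CPM in code 6. It was not called (log2 8.73 ± 2.32, adjusted p = 0.125), and 1 day 0 acetone library also held it at 182.1 CPM. In sorted bulk RNA more cells of a type and more RNA per cell cannot be told apart, and the part of keratinocyte RNA in the other differences was not tested. With the keratinocyte and ribosomal protein genes taken out before scaling, 145 genes were called, 103 higher and 42 lower.

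Ribosomal protein genes formed the second block. This list was added after the values were seen. Of 78 tested, 32 rose and 0 fell, 76 lay above 0 and the median was log2 0.49. Together they took 15.04% and 14.3% of the counts in code 5 and 18.1% and 18.3% in code 6. The code 2 libraries lay above code 6, at 18.54% and 19.42%, and the day 0 acetone libraries at 15.79% to 16.55%. Rps2, in the small ribosomal subunit, measured 1207 and 1210 CPM in code 5 and 2085 and 1948 CPM in code 6 (log2 0.74 ± 0.11, adjusted p = 0.000627). Rplp1, in the stalk of the large subunit, measured 2671 and 2525 CPM against 4594 and 3873 CPM (log2 0.70, adjusted p = 0.00123). Both genes were higher in each code 6 library than in each code 5 library, as were 73 of the 78, against 2911 of all 11588 genes tested.

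The starts of such genes are shown because the family is known for the 5′ terminal oligopyrimidine (TOP) tract, through which growth signals govern translation. A C followed by at least 4 pyrimidines within 5 bases of the annotated start was present in 27 of 57 ribosomal protein genes with an entry (47.4%), in 8 of 21 of those called higher, and in 2187 of 9264 of all genes tested (23.6%). From 10 bases before the annotated start, 30 bases on the gene's strand, with the tract in capitals, read as follows (RefSeq, GRCm38.p6). The genes are Rpl27a (chr7:109519185-109519214, plus strand), Rpl35 (chr2:39005112-39005141, minus strand), Rpl15 (chr14:18270967-18270996, minus strand) and Gnb2l1 (chr11:48800350-48800379, plus strand), which encodes the ribosome-bound scaffold RACK1; all 4 rose and were chosen for their tracts after the values were seen.
Rpl27a: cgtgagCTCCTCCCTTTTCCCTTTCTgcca
Rpl35: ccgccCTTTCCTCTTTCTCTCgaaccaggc
Rpl15: agaaagCCTTCTTCCTTTCCTCTggcggca
Gnb2l1: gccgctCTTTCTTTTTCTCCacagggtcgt

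A few other called genes were picked after their values were seen. The elongation factor Eef1b2 measured 1246 and 1285 CPM in code 5 and 2119 and 1878 CPM in code 6 (log2 0.66 ± 0.12, adjusted p = 0.00319). Nhp2, a protein of the particles that modify ribosomal RNA, measured 52.8 and 59.4 CPM against 160.0 and 161.6 CPM (log2 1.52 ± 0.25, adjusted p = 0.00181). Srm, which makes the polyamine spermidine, measured 30.1 and 16.8 CPM against 73.9 and 75.4 CPM (log2 1.66 ± 0.26, adjusted p = 0.00115). Nhp2 and Srm thus changed more than any ribosomal protein gene given above.

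Nuclear genes of oxidative phosphorylation pointed the same way with few calls. Of 49 tested, 3 rose and 0 fell, 47 lay above 0, and the median was log2 0.41. Ndufa4, a subunit of the respiratory chain, measured 434.9 and 305.6 CPM in code 5 and 762.9 and 765.3 CPM in code 6 (log2 1.04 ± 0.20, adjusted p = 0.00748). Cycs, which encodes cytochrome c, measured 431.5 and 374.5 CPM against 614.8 and 674.3 CPM (log2 0.68 ± 0.17, adjusted p = 0.0489). The complex I subunit Ndufa12 measured 788.8 and 685.0 CPM against 1089 and 1033 CPM (log2 0.53 ± 0.13, adjusted p = 0.0465). The 15 mitochondrially encoded genes had 0 calls and a median of log2 0.23. With the trend by transcript length removed, Ndufa4 did not pass (log2 0.57, adjusted p = 0.144). Cycs and Ndufa12 were called in 0 of the 4 fits that left out a library, and the ribosomal protein calls numbered 12 without code 5 A, 3 without code 5 B, 8 without code 6 A and 18 without code 6 B.

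Transcript length moved with these differences. Among genes averaging 20 CPM or more, outside the keratinocyte and ribosomal lists, the median log2 fold change was 0.37 for the 317 genes with transcripts under 1000 bases, 0.01 for the 809 of 2000 to 3000 bases, and -0.43 for the 286 of 6000 bases or more. Of those groups 22, 15 and 0 genes were called higher and 0, 14 and 13 lower. Lengths are those of the longest coding transcript in GENCODE vM21, and 11087 of the 11588 genes tested had one. The median transcript of the 172 higher genes was 1447 bases, that of the 58 lower genes 4023 bases and that of all genes tested 3078 bases. The same difference could be read from whole libraries: transcripts under 1000 bases took 19.2% and 18.4% of the nuclear counts outside those lists in code 5 and 21.8% and 21.4% in code 6, and transcripts of 6000 bases or more took 4.99% and 5.32% in code 5 and 3.80% and 3.71% in code 6. Both code 6 libraries lay beyond the other 15 on both measures.

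**Figure D3:**
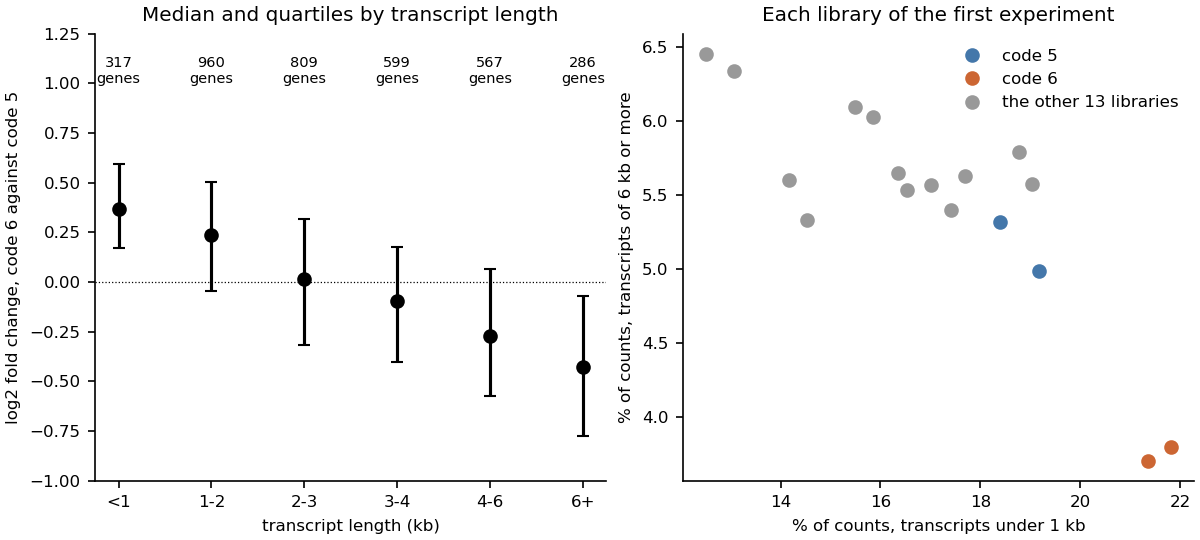
Left, median and quartiles (bars) of the log2 fold change of code 6 against code 5 by transcript length, with the number of genes; right, for each of the 17 libraries, the percentage of counts in transcripts under 1 kb and in those of 6 kb or more. The median falls from 0.37 to -0.43 with length, and the code 6 libraries stand at the short end with 21.8% and 21.4% in transcripts under 1 kb.

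When each library's trend with length was removed, 140 genes were called, 101 higher and 39 lower, and 97 of the 172 higher and 26 of the 58 lower genes kept their call. The keratinocyte calls numbered 21 in place of 22, with a median of log2 2.50. The ribosomal protein calls numbered 5 in place of 32 and their median was log2 0.12. The oxidative phosphorylation list fell to 1 call and a median of log2 0.03. The AP-1 and TCR response lists had 4 and 5 calls, as many as before. Among named epidermal genes Lor and Sprr2d did not pass, at nearly the same fold changes of log2 5.05 and 7.25 (adjusted p = 0.0668 and 0.0582). Whether length, RNA quality or another property of the libraries gave this trend was not tested.

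Among effector genes of T cells, 2 granzymes rose and 2 cytokine genes fell of 25 tested, and the other 21 did not pass. The list median was log2 -0.09. Gzmb, the granzyme that triggers death of target cells, measured 1466 and 1331 CPM in code 5 and 2418 and 2363 CPM in code 6, a rise of 1.71-fold (log2 0.77 ± 0.13, adjusted p = 0.00264). Gzma, a tryptase of the same granules, measured 90.3 and 105.8 CPM against 297.6 and 281.3 CPM, a rise of 2.95-fold (log2 1.56 ± 0.19, adjusted p = 7.17e-05). Both granzymes were higher in code 6 than in all other GFP-negative libraries outside day 1, where Gzmb reached 974.9 CPM in day 0 acetone and Gzma 121.5 CPM. Gzmb is on chromosome 14 (chr14:56258838-56262260) and Gzma on chromosome 13 (chr13:113093825-113100981).

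The 2 effector genes that fell were Tnf and Csf1. Tnf, which encodes tumour necrosis factor, measured 92.3 and 81.0 CPM in code 5 and 32.3 and 26.1 CPM in code 6, 2.97-fold lower (log2 -1.57 ± 0.30, adjusted p = 0.00596). Csf1, a growth factor for macrophages, measured 301.0 and 217.5 CPM against 143.5 and 140.4 CPM (log2 -0.87 ± 0.20, adjusted p = 0.0242). Ifng, which encodes interferon gamma, measured 786.1 and 648.9 CPM against 426.6 and 600.9 CPM and did not pass the test (log2 -0.48 ± 0.15, adjusted p = 0.141). Its libraries did not overlap, which held for 2626 genes lower in code 6 of all 11588 tested. With the length trend removed Ifng passed, at log2 -0.79 (adjusted p = 0.00679), Gzmb kept its call at log2 0.52 (adjusted p = 0.0401), and Csf1 did not pass at log2 -0.68 (adjusted p = 0.105). Gzma was called in all 4 fits that left out a library, Gzmb in 3, Tnf in 2 and Csf1 in 1.

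Genes induced by TCR signalling were lower in code 6 where they were called, with 1 exception. Of 30 tested, 4 fell and 1 rose, and the median was log2 -0.32. Nr4a1, whose protein Nur77 gives the sorted reporter its name, measured 1472 and 1295 CPM in code 5 and 530.3 and 818.7 CPM in code 6, 2.05-fold lower (log2 -1.04 ± 0.19, adjusted p = 0.00439). Both sets had been sorted as reporter-negative, so this is a difference in RNA among cells of the same gate. Tnfaip3, which encodes the NF-kB inhibitor A20, measured 577.3 and 548.7 CPM against 263.5 and 255.6 CPM (log2 -1.12 ± 0.18, adjusted p = 0.0017). Zfp36l1, an RNA-binding protein that speeds mRNA decay, measured 369.0 and 270.1 CPM against 170.3 and 183.4 CPM (log2 -0.85 ± 0.17, adjusted p = 0.0106). The fourth, Nr4a2, a relative of Nr4a1 outside the naming rule, measured 60.2 and 68.5 CPM against 29.6 and 28.9 CPM (log2 -1.14 ± 0.24).

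The exception was Dusp2, a phosphatase that switches off MAP kinases, at 210.1 and 145.9 CPM in code 5 and 294.5 and 505.6 CPM in code 6 (log2 1.17 ± 0.22, adjusted p = 0.00748). Its 2 code 6 libraries were further apart than those of code 5, and it was called in 2 of the 4 fits that left out a library. Nr4a1 was likewise called in 2, Tnfaip3 in 4 and Zfp36l1 in 1. In day 0 acetone Dusp2 was at 50.01 to 56.2 CPM and in code 2 at 402.3 and 341.3 CPM, so code 5 and code 6 both lay between them except for code 6 B.

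AP-1 and immediate early genes included 4 that fell and 0 that rose among 15 tested, with a median of log2 -0.45. Fosb measured 234.8 and 252.7 CPM in code 5 and 103.2 and 115.3 CPM in code 6, 2.23-fold lower (log2 -1.16 ± 0.16, adjusted p = 0.000271). Fosl2 measured 217.9 and 283.3 CPM against 119.0 and 91.3 CPM (log2 -1.25 ± 0.19, adjusted p = 0.000627). Junb, a Jun family member and the most abundant of the 4, measured 1655 and 1622 CPM against 737.0 and 1175 CPM (log2 -0.78 ± 0.19, adjusted p = 0.0416). Btg2, an antiproliferative gene of the immediate early class, measured 429.2 and 453.4 CPM against 247.0 and 261.9 CPM (log2 -0.79 ± 0.18, adjusted p = 0.0249). The list summed to 5231 and 5025 CPM in code 5, 3387 and 3881 CPM in code 6, 5079 to 5389 CPM in code 2 and 5947 to 7293 CPM in day 0 acetone.

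Immediate early genes also respond to the handling of tissue, and a list of heat shock and dissociation genes was measured beside them. Of 17 tested, 2 rose and 2 fell. The chaperone gene Hspa1b measured 1687 and 1539 CPM in code 5 and 940.3 and 1122 CPM in code 6 (log2 -0.65 ± 0.16, adjusted p = 0.0437), and the stress gene Gadd45b 159.3 and 164.0 CPM against 60.6 and 81.2 CPM (log2 -1.19 ± 0.20, adjusted p = 0.00194). Hspb1, a small chaperone abundant in epidermis, measured 21.8 and 17.8 CPM against 175.5 and 132.8 CPM (log2 2.96 ± 0.33). Hspb1 was at 238.1 and 176.8 CPM in code 2, above code 6, and at 96.02 to 147.6 CPM in day 0 acetone. The chaperone Hsp90ab1 measured 1171 and 1028 CPM against 1483 and 1538 CPM (log2 0.46 ± 0.12, adjusted p = 0.0483). Btg2, Hspa1b and Hsp90ab1 were called in 0 of the 4 fits that left out a library and Junb in 1. The sums of this list overlapped, at 5627 and 5021 CPM in code 5 and 5221 and 5515 CPM in code 6. The part of tissue handling in the lower immediate early genes was not tested.

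Many transcripts of this kind carry AU-rich elements in the 3′ untranslated region, through which they are quickly degraded. The letters TATTTAT were found in the annotated 3′ region of 27 of the 58 called lower genes (46.6%), in 22 of 171 called higher genes (12.9%) and in 3310 of 11087 of all genes tested (29.9%). Per kilobase of 3′ region the matches numbered 0.386 in lower genes, 0.255 in higher genes and 0.288 in all. The called higher keratinocyte and ribosomal protein genes held 0 matches. In the 117 other higher genes with a transcript the letters were found in 22 (18.8%), at 0.315 per kilobase, which is above that of all genes. The lower genes also had longer 3′ regions, with a median of 1908 bases against 1130 in all genes. This feature was examined after the values were seen.

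Several further lower genes have known roles in T cells. Foxo1, a transcription factor of resting and recirculating T cells and the called member of the tissue exit list, measured 99.0 and 90.4 CPM in code 5 and 34.9 and 44.5 CPM in code 6 (log2 -1.25 ± 0.20, adjusted p = 0.00126). In day 0 acetone it was at 89.8 to 113.4 CPM and in code 2 at 98.8 and 99.9 CPM, so code 6 stood below all of these. Pik3cd, the catalytic subunit of the lymphocyte PI3 kinase, measured 85.6 and 95.9 CPM against 27.6 and 43.0 CPM (log2 -1.36 ± 0.30, adjusted p = 0.0216). Slc38a2, a transporter of small neutral amino acids, measured 171.5 and 155.8 CPM against 66.2 and 64.8 CPM (log2 -1.32 ± 0.19, adjusted p = 0.000338). These genes have long transcripts, 8665 bases for Foxo1, 4921 for Pik3cd and 4660 for Slc38a2. With the length trend removed Foxo1 and Slc38a2 kept their calls at log2 -0.85 and -1.08 (adjusted p = 0.0372 and 0.00239), whereas Pik3cd did not pass at log2 -1.096 (adjusted p = 0.0996).

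Other genes among the largest falls act in the nucleus. Arid1a, a subunit of the SWI/SNF remodelling complex, measured 184.8 and 196.8 CPM in code 5 and 69.0 and 78.9 CPM in code 6 (log2 -1.37 ± 0.23, adjusted p = 0.00205). Runx2, a transcription factor, measured 116.7 and 170.3 CPM against 61.4 and 48.7 CPM (log2 -1.38 ± 0.30, adjusted p = 0.0184). Kdm6b, a histone H3K27 demethylase, measured 44.7 and 43.0 CPM against 21.7 and 11.6 CPM (log2 -1.40 ± 0.29, adjusted p = 0.0142). With the length trend removed Arid1a kept its call at log2 -0.98 (adjusted p = 0.0462), and Runx2 and Kdm6b did not pass at log2 -1.04 and -1.06 (adjusted p = 0.106 and 0.0922). The largest fall among the named genes, that of Tbcel, a tubulin-binding protein, was from 88.1 and 69.3 CPM to 16.9 and 22.7 CPM (log2 -1.99 ± 0.44, adjusted p = 0.0212), and with the trend removed it did not pass at log2 -1.72 (adjusted p = 0.0608). Tbcel was also called in 0 of the 4 fits that left out a library, Pik3cd, Runx2 and Kdm6b in 1, and Foxo1 and Arid1a in 3.

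Surface receptors of T cells were mostly below 0 with few calls. Cd44, an adhesion receptor kept high on memory cells, measured 1502 and 1426 CPM in code 5 and 975.0 and 904.7 CPM in code 6 (log2 -0.64 ± 0.13, adjusted p = 0.00838). Ptprc, which encodes CD45, measured 203.9 and 213.8 CPM against 112.1 and 123.0 CPM (log2 -0.83 ± 0.18, adjusted p = 0.0214). Both transcripts exceed 5000 bases, and with the length trend removed neither passed (log2 -0.33, adjusted p = 0.235 for Cd44 and log2 -0.56, adjusted p = 0.201 for Ptprc). Of 19 cytokine receptor genes 17 lay below 0, with a median of log2 -0.61, and 1 fell, the interleukin 21 receptor Il21r, from 45.1 and 58.4 CPM to 22.7 and 16.7 CPM (log2 -1.39 ± 0.31, adjusted p = 0.0232). Il21r kept its call with the length trend removed (adjusted p = 0.0316). Cd44, Ptprc and Il21r were called in 0 of the 4 fits that left out a library.

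The genes that define residency and the sort gate were measured in the same libraries. Cd69 stood at 320.6 and 337.2 CPM in code 5 and 228.5 and 288.0 CPM in code 6 (log2 -0.35 ± 0.18, adjusted p = 0.499). Itgae, which encodes CD103, stood at 221.4 and 169.5 CPM against 137.3 and 119.5 CPM (log2 -0.61 ± 0.25, adjusted p = 0.327). Neither passed the test. Both code 6 libraries were below both code 5 libraries for each gene, as they were for 2626 of all 11588 genes tested. Of 22 residency genes tested, 19 lay below 0 (median log2 -0.48), 2 fell and 1, Fabp5, rose. Rgs2, a brake on G protein signalling, measured 1398 and 1313 CPM against 857.5 and 928.0 CPM (log2 -0.60 ± 0.11, adjusted p = 0.00494). Vps37b, a subunit of the endosomal sorting machinery, measured 302.0 and 291.2 CPM against 154.7 and 171.0 CPM (log2 -0.87 ± 0.15, adjusted p = 0.0034). Both kept their calls with the length trend removed, and Rgs2 was called in 2 and Vps37b in 3 of the 4 fits that left out a library.

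**Figure D4:**
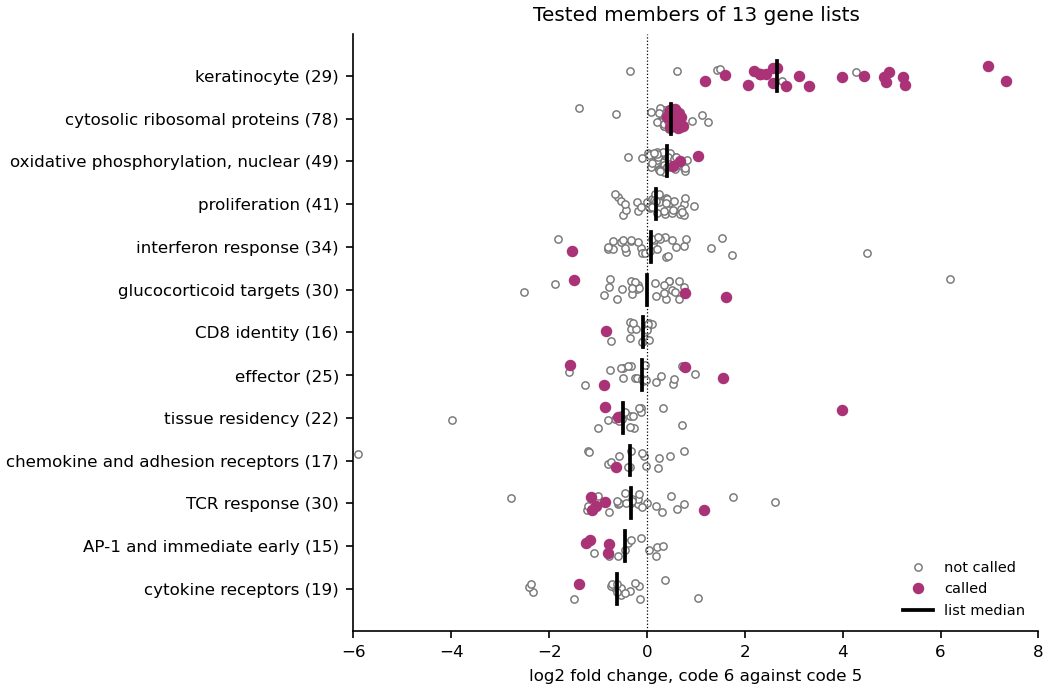
Log2 fold change of code 6 against code 5 for every tested member of 13 gene lists (number tested in parentheses); filled points passed the test and bars are list medians. Keratinocyte genes reach far to the right with a median of 2.65, and the cytokine receptor list has the lowest median of those plotted, at -0.61.

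The list of glucocorticoid target genes, which also holds the receptor gene Nr3c1, was divided. Of 30 tested, 2 rose and 1 fell, and the 1 that fell was Nr3c1. Of the 30, 15 lay above and 15 below 0, and the median was log2 0.00. The metallothionein Mt2, a metal-binding protein induced by steroids, metals and stress, measured 177.0 and 151.9 CPM in code 5 and 500.0 and 508.3 CPM in code 6, a rise of 3.06-fold (log2 1.62 ± 0.18, adjusted p = 1.71e-05). Mt1 measured 320.6 and 254.6 CPM against 464.7 and 527.5 CPM (log2 0.79 ± 0.19, adjusted p = 0.032). In code 2 both genes were above code 6, with 736.1 and 595.4 CPM for Mt2 and 673.5 and 794.8 CPM for Mt1. In day 0 acetone Mt2 was at 302.5 to 376.6 CPM and Mt1 at 236.6 to 332 CPM. Mt2 was called in all 4 fits that left out a library and with the length trend removed (log2 1.097), and Mt1 in 0 of the 4 and not with the trend removed (adjusted p = 0.37). Keratinocytes also express metallothioneins, and the share of their RNA in these values was not tested.

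The transcripts most used as readouts of the glucocorticoid receptor did not pass. Tsc22d3, which encodes the anti-inflammatory protein GILZ, measured 103.8 and 125.0 CPM in code 5 and 136.6 and 188.0 CPM in code 6 (log2 0.51 ± 0.23, adjusted p = 0.381). Fkbp5, a chaperone of the receptor, measured 19.95 and 14.5 CPM against 12.5 and 17.5 CPM, and its libraries overlapped (log2 -0.20 ± 0.36, adjusted p = 0.928). The clock gene Per1 measured 42.4 and 34.8 CPM against 24.5 and 25.9 CPM (log2 -0.62 ± 0.31, adjusted p = 0.453). In the code 2 libraries these genes were higher than in either code, with 322.0 and 369.3 CPM for Tsc22d3, 61.8 and 84.8 CPM for Fkbp5 and 66.5 and 77.3 CPM for Per1. The receptor gene itself, Nr3c1, fell from 54.5 and 64.4 CPM to 20.6 and 21.4 CPM (log2 -1.50 ± 0.39, adjusted p = 0.0494), and this call was lost with the length trend removed (log2 -1.16, adjusted p = 0.186) and in all 4 fits that left out a library.

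**Figure D5:**
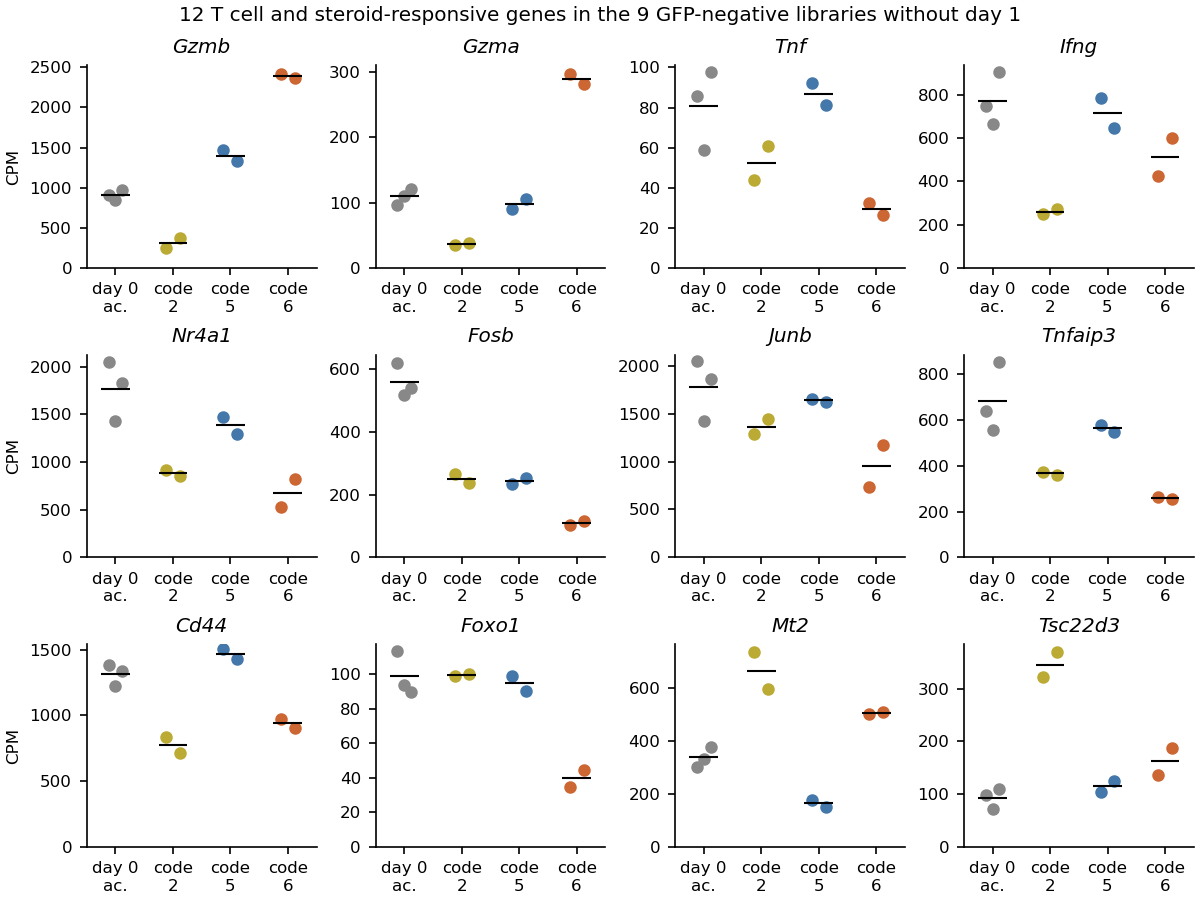
CPM of 12 genes in the 9 GFP-negative libraries outside day 1 (points; lines are means; day 0 ac. is day 0 acetone). Gzmb, Gzma and Mt2 stand above code 5 in code 6, Tnf, Nr4a1, Fosb, Junb, Tnfaip3, Cd44 and Foxo1 stand below it, and Ifng and Tsc22d3 did not pass the test.

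Among lipid genes the change lay in a few members. Of 20 tested, 2 rose, and the median was log2 -0.01. Scd1, the desaturase that makes monounsaturated fatty acids, measured 3.92 and 2.15 CPM in code 5 and 155.1 and 87.4 CPM in code 6, 38.6-fold higher (log2 5.27 ± 1.01, adjusted p = 0.0142). In day 0 acetone Scd1 ranged from 19.7 to 136.7 CPM, which is a wide spread within 1 group but lies above both code 5 libraries, and Scd1 was called in 0 of the 4 fits that left out a library. Apoe, the lipid carrier, measured 39.2 and 35.4 CPM against 233.5 and 195.8 CPM (log2 2.52 ± 0.22, adjusted p = 1.02e-06) and was called in all 4. Apoe was at 247.3 to 293.8 CPM in day 0 acetone, above code 6, and at 161.8 and 159.7 CPM in code 2, between code 5 and code 6. Mgst1, a membrane glutathione transferase, had 2 counts in code 5 and 722 in code 6, a ratio of 319.8 with a counting interval of 88.2 to 2646. In the fit across libraries its log2 fold change was 8.06 ± 1.37 (adjusted p = 0.00386), and it was at 2.99 to 63.4 CPM in day 0 acetone.

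Several programmes gave no calls or a single one. Proliferation genes had 0 calls among 41 tested, a median of log2 0.19, and sums of 8054 and 7859 CPM in code 5 and 9997 and 9445 CPM in code 6. In code 2 the same sum was 1615 and 1670 CPM and in day 0 acetone 4181 to 4944 CPM, so both codes compared here carried the higher levels of cell cycle transcripts. Glycolysis genes had 0 calls among 22 (median log2 0.13), inhibitory receptors 0 among 15 (log2 -0.26), natural killer receptors 0 among 8 and genes of the Bcl2 family 0 among 17 (log2 -0.32). Of 34 interferon response genes 1 fell, the guanylate-binding protein Gbp4, from 49.0 and 52.9 CPM to 15.4 and 19.98 CPM (log2 -1.52 ± 0.35, adjusted p = 0.026), and the list median was log2 0.08. Gbp4 was called in 0 of the 4 fits that left out a library and not with the length trend removed (log2 -1.299, adjusted p = 0.0764). A list without calls does not show that its genes were alike, since 1329 genes had an unadjusted p under 0.05 and 230 passed the adjusted test.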

How the data were processed

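Total RNA of sorted cells was sequenced by CEL-seq2, which reads the 3′ ends of transcripts, per the labels' protocols. The deposited table holds counts per gene and library; bcl2fastq 2.2, BWA 0.7.15, HTSeq and the GRCm38 genome are listed in the submitters' processing notes. The sources used here do not state strand use or molecular barcode collapse, so intervals and floors cover counting error only.

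In R 4.3.3, edgeR 4.0.16 kept 11588 of 18054 gene rows (filterByExpr), scaled libraries by TMM and fitted 8 group means over 17 libraries robustly. The quasi-likelihood F test gave p-values, adjusted by Benjamini-Hochberg. A control transcript row was left out. SE is the log2 fold change over the square root of F; CPM are TMM-scaled. The procedure was also run on simulated counts drawn from this fit's own spread. These held no length trend between the codes, so they do not test how the calls behave under it.

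Named genes are the 12 largest called changes per direction at 20 CPM or more whose libraries do not overlap. Added to them are up to 4 called members per list by p, and 9 fixed genes. Other genes given were chosen after their values were seen. Predicted genes and receptor segments were excluded. Members and the 33 lists were chosen with earlier results of these data known, and ribosomal protein genes, motifs, length and scaling checks were added after seeing the data. Other GFP-negative levels are descriptions.

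Alternatives were median-of-ratios factors, no filter, DESeq2 1.42.0, a replicate block, fewer libraries, no chromosome M rows, no robust estimation, leaving out each library, 2 other scalings and removal of a length trend (lowess against log2 transcript length, as an offset). The labels do not say whether sample letters pair libraries. Deviations of code 5 A and code 6 A from their code means correlated at -0.064, and 1 such value cannot decide it.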

Additional observations from a re-analysis of the deposited data

How the results depend on the processing

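No gene called in the comparison was called in the opposite direction under any alternative. Without the low-count filter 389 genes were called (275 higher, 114 lower), and DESeq2 called 490 (383 higher, 107 lower), including all 172 and 58. With a replicate block 174 genes were called (134 higher, 40 lower), and the labels do not say what a shared letter stands for. Median-of-ratios factors gave 252 calls, and fits on the 4 libraries alone or on 9 GFP-negative libraries gave 306 and 282. Without mitochondrial rows there were 236 calls and without robust estimation 198. Of the alternatives chosen after seeing the data, leaving keratinocyte and ribosomal protein genes out gave 145 calls (103 higher), scaling by CD8 identity genes 249, and removing the length trend 140 (101 higher). Leaving out 1 library gave 64 to 112 calls, 48 to 88 higher and 12 to 24 lower; the lone library of a code is then assumed to vary like the other groups. Without code 5 A or code 6 A the share of higher calls was 86.7% or 84.9%, against 74.8%. The uncalled Fkbp5 ranged from -0.46 to 0.066 over these fits, and the uncalled Cd8a was at 0.0088 with the length trend removed. Having 2 libraries per code limits precision, and the part of depth in this was not tested.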
